A study of Mus musculus with 2 samples.

Results

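The glucocorticoid receptor gene, the genes of the enzymes that switch its ligand on and off, and 7 classic direct targets of the receptor were compared between small intestinal epithelial cells of wild-type mice (miR-215+/+) and of mice lacking miR-215 (miR-215-/-). The set had 10 genes of the 23284 listed in both libraries: Nr3c1, the receptor; Hsd11b1 and Hsd11b2, the steroid enzymes; and the targets Fkbp5, Per1, Ddit4, Sgk1, Tsc22d3, Klf9 and Errfi1. They were chosen by symbol, with their values in these libraries already known, so their differences are given as a description and nothing is supported with them. Messenger RNA was sequenced in 1 library per genotype, which leaves no spread between animals to set a difference against. The labels give no strain, age, sex, treatment or time of collection, and do not say how many mice a library holds or how the allele was made. Below, "higher" and "lower" say where the knockout value lay against the wild-type value. Mir215 was listed at 137 FPKM in wild-type and at 0 in knockout cells, the direction that the labels give. The related Mir192 was listed at 0 and 387 FPKM, so the values of such short transcripts can jump between libraries and are a weak check. All 12 enterocyte markers were at 1 FPKM or more, among them Fabp2, a fatty acid carrier, and Apoa1, a lipoprotein subunit. In these bulk samples, fewer cells of a type and less RNA per cell cannot be told apart.

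The glucocorticoid receptor waits in the cytoplasm in a complex with HSP90 and its co-chaperones. After binding corticosterone, the main glucocorticoid of mice, it moves to the nucleus and binds DNA at glucocorticoid response elements, in which a pair of hexamers face each other. HSD11B1 makes active corticosterone from its inert 11-keto form inside the cell, and HSD11B2 does the reverse, which in salt-transporting epithelia shields the mineralocorticoid receptor. In the gut epithelium glucocorticoids promote maturation, sodium uptake and sugar handling, and restrain inflammation.

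The sequences shown first are the stretches of the members' promoters in which a searched motif was found, because these genes are grouped as direct targets of 1 DNA-binding receptor. Promoter windows of 300 bases, from 250 before to 50 after a RefSeq start on GRCm38.p6, were matched by symbol for 8 of the 10 members, 17 windows in all. The response element was searched as GNACA, any 3 bases, then TGTNC, a pattern that reads the same on both strands. The hexamer of its arms, AGAACA, the E-box CACGTG of clock factors and the cAMP response element TGACGTCA were searched on both strands. The response element was found in 1 member, Sgk1, in 1 of its 6 windows, chr10:21993640-21993939 on the plus strand, from 188 to 176 bases before the start. With the base on either side it holds the hexamer on each strand, so those matches overlap it. This window also holds an E-box 246 bases before the start, left in lower case below. Of 27025 genes with a window, 0.537% held the response element pattern in at least 1. The E-box shown for Fkbp5 lies in chr17:28486100-28486399 on the minus strand and that of Per1 in chr11:69098699-69098998 on the plus strand, 169 and 166 bases before the start. The cAMP response element of Errfi1 lies in chr4:150854820-150855119 on the plus strand, 51 bases before a start that is in no annotated transcript of GENCODE M21. Capitals mark the match in each line, written 5′ to 3′ along the gene's strand.
Sgk1: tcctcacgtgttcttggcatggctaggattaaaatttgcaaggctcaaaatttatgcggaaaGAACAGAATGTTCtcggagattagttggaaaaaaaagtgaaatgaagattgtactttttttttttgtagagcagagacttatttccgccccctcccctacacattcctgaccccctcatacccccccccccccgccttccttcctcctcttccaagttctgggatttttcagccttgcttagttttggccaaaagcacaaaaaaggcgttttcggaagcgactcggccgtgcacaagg
Fkbp5: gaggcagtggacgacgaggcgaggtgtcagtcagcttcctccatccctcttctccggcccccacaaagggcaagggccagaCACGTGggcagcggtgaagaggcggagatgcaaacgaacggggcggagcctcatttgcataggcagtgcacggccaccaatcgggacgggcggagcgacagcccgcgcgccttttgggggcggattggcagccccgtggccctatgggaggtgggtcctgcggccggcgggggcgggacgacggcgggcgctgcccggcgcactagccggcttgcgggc
Per1: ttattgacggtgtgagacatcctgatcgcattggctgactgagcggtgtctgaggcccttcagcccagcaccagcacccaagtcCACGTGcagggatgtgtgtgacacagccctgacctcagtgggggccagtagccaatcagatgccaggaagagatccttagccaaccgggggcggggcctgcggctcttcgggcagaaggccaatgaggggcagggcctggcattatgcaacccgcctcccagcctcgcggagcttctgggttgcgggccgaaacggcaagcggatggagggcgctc
Errfi1: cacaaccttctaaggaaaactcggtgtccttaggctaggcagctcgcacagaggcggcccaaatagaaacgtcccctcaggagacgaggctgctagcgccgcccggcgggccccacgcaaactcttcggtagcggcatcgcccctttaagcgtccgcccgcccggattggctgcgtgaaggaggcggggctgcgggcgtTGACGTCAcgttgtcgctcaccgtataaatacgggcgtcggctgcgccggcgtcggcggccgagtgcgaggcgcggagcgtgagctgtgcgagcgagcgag

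An E-box was present in 3 members, Fkbp5, Per1 and Sgk1, and in 8.09% of all genes with a window. The hexamer was present in 2 members, Sgk1 and Tsc22d3, and in 21.3% of all genes. The cAMP response element was present in Errfi1 and in 2.03% of all genes. Sgk1 carried 5 hexamers over 3 of its windows. The windows of Ddit4, Klf9 and Hsd11b1 held none of the 4 motifs, which says only that these letters are not in those windows. Receptor binding sites of such genes often lie far from the start, and no longer stretch was searched.

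The microRNA removed in the knockout and its relative miR-192 are shown because they share bases 2 to 8, the seed, which pairs with target transcripts. Capitals mark the seed.
miR-215-5p: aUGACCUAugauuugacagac
miR-192-5p: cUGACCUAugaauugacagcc
The DNA letters that pair with this seed, TAGGTCA, occurred in the longest annotated 3' UTR of 1 of the 10 members, Klf9, a zinc finger repressor. The stretch below lies at chr19:23166275-23166304 on the plus strand, with the site, in capitals, starting at base 1375 of the 3222-nt 3' UTR.
Klf9: ttctggtgaacaTAGGTCAaagaaacgcac
Among 10995 genes kept with an annotated 3' UTR, 6.85% held the site, and their median log2 ratio was -0.00, against -0.06 for genes without it. Klf9 was at 0.73 on the same scale.

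Levels are given in FPKM, the fragments of a gene scaled by transcript length and by depth, a unit on which genes can be compared per length. Genes under 1 FPKM in both libraries were set aside, which left 11504 genes kept for comparison. The log2 ratio is log2(knockout FPKM + 1) minus log2(wild-type FPKM + 1). It understates differences of low genes, and ratios called FPKM ratios leave out the added 1. Counts of genes 2-fold apart are always on this scale with the added 1, so a low gene can have an FPKM ratio past 2 and not be counted. Fragment numbers were estimated from the steps between the lowest values. The 95% intervals made from them (exact Clopper-Pearson) cover counting error only, not the scaling between libraries or variation between mice or preparations. A gene of 2 kb at 1 FPKM rested on about 17.4 fragments in wild-type and 18.1 in knockout cells.

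All 7 targets were higher in the knockout library, 5 of them at least 2-fold on the log2 scale, while the receptor gene was lower. The median log2 ratio of the 7 targets was 1.21, against -0.05 for all genes kept. Of the 10 members, 9 were kept and Hsd11b1 was under 1 FPKM in both libraries. Among all genes kept, 1.34% (154 genes) were past 2-fold on the higher side, 2.04% (235 genes) were past it on the lower side, and 44% had a log2 ratio above 0. That split depends on scaling: with FPKM sums made equal outside short transcripts it was 235 genes higher and 176 lower. None of the members was 2-fold lower. The choice of genes used this same contrast, so nothing is read from the share of members past 2-fold. All 11 kept fibroblast and smooth muscle markers were higher too, with sums of 18.8 and 57.0 FPKM, and the part of such cells in the targets' differences was not tested.

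**Figure D1:**
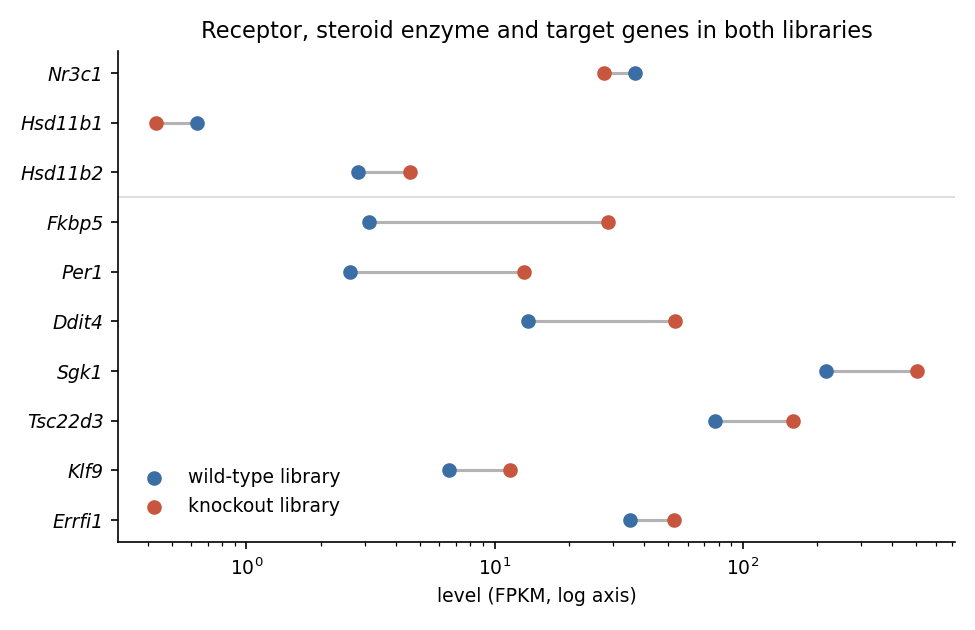
Level of each member in FPKM (log axis) in the wild-type library (blue) and the knockout library (red), 1 library each; the line above Fkbp5 parts the receptor and enzymes from the targets. Each target sits to the right in the knockout library, from 3.11 to 28.8 FPKM for Fkbp5 and from 35.1 to 52.8 FPKM for Errfi1, while Nr3c1 moves from 36.8 to 27.6 FPKM.

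The receptor is described first. Nr3c1 (chromosome 18, 39410545 to 39519421 of mm10, minus strand) was at 36.8 FPKM in wild-type and 27.6 FPKM in knockout cells. The FPKM ratio was 0.751, with a counting interval of 0.704 to 0.800, from about 2187 and 1712 fragments. The difference was thus larger than counting error, in a comparison in which 30.4% of all genes with an interval lay wholly below 1 and 19.7% wholly above. Its log2 ratio was -0.40, which was place 1727 from the lowest of the 11504. With the knockout values multiplied by 1.14, the largest scaling factor tried, the interval was 0.801 to 0.910. The receptor gene was the third most abundant member in the wild-type library and the sixth in the knockout library.

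The mineralocorticoid receptor gene Nr3c2, whose product binds the same hormone and the same DNA element, was at 9.25 FPKM in wild-type and 7.89 FPKM in knockout cells (ratio interval 0.75 to 0.97). The genes of the receptors for progesterone and estrogens, Pgr, Esr1 and Esr2, were at or near 0 in both libraries. Esrra, an orphan receptor of energy metabolism, was at 169 and 131 FPKM. Nr3c2 and Esrra were kept, and neither was 2-fold apart.

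Genes of the complex that holds the receptor lay mostly on the other side. Of 17 chaperone and co-chaperone genes 16 were kept, 12 had a log2 ratio above 0 and none was 2-fold apart on the FPKM + 1 scale, with a median of 0.14. Hspa1b, a stress-inducible HSP70 gene, was at 1.02 and 2.39 FPKM, an FPKM ratio of 2.33 (interval 1.45 to 3.82), and was past 2-fold with 0.1 added in place of 1. Hsp90aa1, the stress-inducible HSP90, was at 51.9 FPKM in wild-type and 91.7 FPKM in knockout cells. Hspa8, the constitutive HSC70, was at 626 and 989 FPKM, and Stip1, which hands client proteins from HSP70 to HSP90, at 30.7 and 46.3 FPKM. These 3 were among 7 of the 16 with counting intervals wholly above 1, while that of Bag1, an HSP70 nucleotide exchange factor, lay below 1 (112 and 90.1 FPKM). The HSP90 co-chaperone Fkbp4, which favours transport of the receptor to the nucleus where FKBP5 slows it, was at 92.1 FPKM in wild-type and 105 FPKM in knockout cells. Fkbp4 was thus above Fkbp5 in level in both. Of 18 receptor cofactor genes, 13 were above 0 and none was 2-fold apart, with a median of 0.11; the largest positive one was Trim28 at 37.3 and 45.6 FPKM and the most abundant was the corepressor gene Ncor1 at 58.2 and 51.5 FPKM.

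The steroid enzymes differed in level. Hsd11b1 (chromosome 1, 193221634 to 193264075, minus strand) was at 0.630 FPKM in wild-type and 0.434 FPKM in knockout cells, about 8 and 6 fragments. Its FPKM ratio of 0.688 had an interval of 0.206 to 2.36, so no difference was detectable at this depth. Hsd11b2 (chromosome 8, 105518755 to 105523988, plus strand) was at 2.81 FPKM and 4.58 FPKM, about 45 and 76 fragments. The FPKM ratio of Hsd11b2 was 1.63 (interval 1.11 to 2.40) and its log2 ratio 0.55, with 5.72% of the genes kept above it. The inactivating enzyme gene was above the activating one in both libraries, 4.46-fold in wild-type and 10.5-fold in knockout cells, and both values rest on few Hsd11b1 fragments.

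Other genes of steroid handling were mostly lower in the knockout library. Of 11 kept genes for steroid reduction, cofactor supply and efflux, 9 had a log2 ratio below 0, with a median of -0.43. At least 2-fold lower were 3 of the 11, against 2.04% of all genes kept. The 3 were the aldo-keto reductase genes Akr1c14, at 40.6 FPKM in wild-type and 10.5 FPKM in knockout cells, Akr1c19, at 81.4 and 32.6 FPKM, and Akr1c13, at 109 and 45.5 FPKM. Enzymes of this family reduce keto groups of steroids, and as close paralogs they can share fragments. Hsd17b2, which oxidises sex steroids to weaker forms, was at 138 and 68.8 FPKM, and Abcb1a, the efflux pump P-glycoprotein that exports glucocorticoids, at 68.9 and 44.4 FPKM. H6pd, which supplies HSD11B1 with NADPH, was at 3.64 and 3.95 FPKM, with an interval that included 1.

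Genes of steroid synthesis in the gut wall were partly close to 0. Cyp11a1 and Cyp11b1, which make the first and the last step towards corticosterone, were at or under 0.0655 FPKM in both libraries, which rests on about 1 fragment at most in each. Of the 17 genes, 9 were kept, 7 of them below 0, with a median of -0.32. At least 2-fold lower were 2 of the 9, against 2.04% of all genes kept. Hsd3b3, a steroid dehydrogenase, was at 19.2 FPKM in wild-type and 5.83 FPKM in knockout cells. Nr0b2, the repressor SHP, was at 14.9 and 4.13 FPKM. Nr5a2, the nuclear receptor LRH-1 that drives steroid synthesis in the crypts and is held back by SHP, was at 7.15 and 9.67 FPKM (interval 1.13 to 1.62).

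The targets are described from the largest difference to the smallest. Fkbp5 (chromosome 17, 28399094 to 28517527, minus strand) encodes the co-chaperone FKBP51, which lowers the hormone affinity of the receptor and so closes a feedback loop. It was at 3.11 FPKM in wild-type and 28.8 FPKM in knockout cells, about 101 and 972 fragments. The FPKM ratio was 9.26 (interval 7.51 to 11.4) and the log2 ratio 2.86. Of the genes kept, 19 had a higher log2 ratio, and 18 of these have only annotated transcripts shorter than 200 nt, for which 1 fragment weighs heavily in FPKM. Without such genes Fkbp5 had the second highest log2 ratio of 11456, after H2-Bl, a histocompatibility gene with close paralogs, named here after its value was seen. Its level lay below that of Klf9 in wild-type cells and beside that of Nr3c1 in knockout cells.

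Per1 (chromosome 11, 69095217 to 69109960, plus strand) encodes a repressor of the circadian clock that glucocorticoids also induce directly. It was at 2.61 FPKM in wild-type and 13.2 FPKM in knockout cells, about 113 and 593 fragments. The FPKM ratio was 5.05 (interval 4.11 to 6.21), and 32 genes kept had a higher log2 ratio than its 1.97. Ddit4 (chromosome 10, 59949669 to 59951834, minus strand) encodes REDD1, which restrains the growth kinase complex mTORC1 under stress. It was at 13.6 FPKM and 53.2 FPKM, a ratio of 3.91 (interval 3.35 to 4.58) and a log2 ratio of 1.89. These 3 genes, Fkbp5, Per1 and Ddit4, were the members with FPKM ratios above 3.

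Sgk1 (chromosome 10, 21882184 to 21999903, plus strand) encodes a kinase that raises sodium uptake by keeping channels and exchangers at the cell surface. It was the most abundant member in each genotype, at 217 FPKM in wild-type and 503 FPKM in knockout cells. The FPKM ratio was 2.31 (interval 2.24 to 2.39), from about 4995 and 12048 fragments, and the log2 ratio 1.21. The absolute difference, 285 FPKM, was the largest of the 10 members, and Sgk1 took 61.1% of the summed target FPKM in wild-type and 61.2% in knockout cells. The deposited values give 1 value per gene, so which of the 6 start sites was in use, among them the one beside the response element shown above, cannot be read from them.

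Tsc22d3 (chromosome X, 140539528 to 140600659, minus strand) encodes GILZ, a leucine zipper protein that mediates anti-inflammatory effects of glucocorticoids. It was at 77.5 FPKM in wild-type and 159.8 FPKM in knockout cells, a ratio of 2.06 (interval 1.92 to 2.21). With a log2 ratio of 1.03 it lay just inside 2-fold. Klf9 (chromosome 19, 23141226 to 23168134, plus strand) was the nearest one outside, at 6.58 FPKM and 11.6 FPKM, a ratio of 1.76 (interval 1.52 to 2.05). Klf9 is the gene that carries the seed match shown above.

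Errfi1 (chromosome 4, 150853919 to 150868892, plus strand) encodes MIG6, an inhibitor of the EGF receptor. It was at 35.1 FPKM in wild-type and 52.8 FPKM in knockout cells, a ratio of 1.51 (interval 1.39 to 1.63) and a log2 ratio of 0.58, the smallest of the targets. Of the genes kept, 5.09% were above it. The counting intervals of all 7 targets were above 1, where 19.7% of all genes with an interval were. The plot of FPKM ratios shows how the width of these intervals follows the fragments behind each gene.

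**Figure D2:**
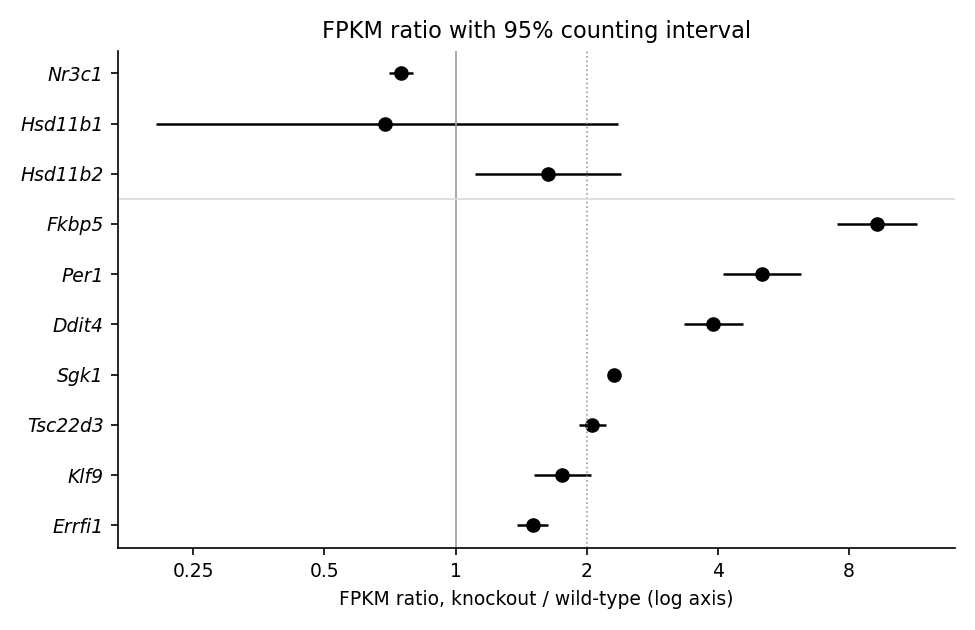
FPKM ratio of each member, knockout over wild-type (log axis), with its 95% counting interval as a bar; the solid line marks 1 and the dotted line 2. The interval of Hsd11b1 (0.206 to 2.36) is the widest and crosses 1, that of Nr3c1 lies below 1, and those of Hsd11b2 and the 7 targets lie above 1.

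The order of the levels differed between the libraries. In the wild-type library it ran Sgk1, Tsc22d3, Nr3c1, Errfi1, Ddit4, Klf9, Fkbp5, Hsd11b2, Per1 and Hsd11b1. Nr3c1 and Errfi1 were within 1.05-fold, and Fkbp5, Hsd11b2 and Per1 followed each other within 1.11-fold, with overlapping exact Poisson intervals. In the knockout library it ran Sgk1, Tsc22d3, Ddit4, Errfi1, Fkbp5, Nr3c1, Per1, Klf9, Hsd11b2 and Hsd11b1. There the neighbours with overlapping intervals were Ddit4 and Errfi1, Fkbp5 and Nr3c1, and Per1 and Klf9. The 3 members with the largest ratios, Ddit4, Fkbp5 and Per1, were at places 5, 7 and 9 in the wild-type library, at 13.6 FPKM or less. Klf9, Hsd11b2 and Hsd11b1, with smaller ratios, also lay below Ddit4 there.

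**Figure D3:**
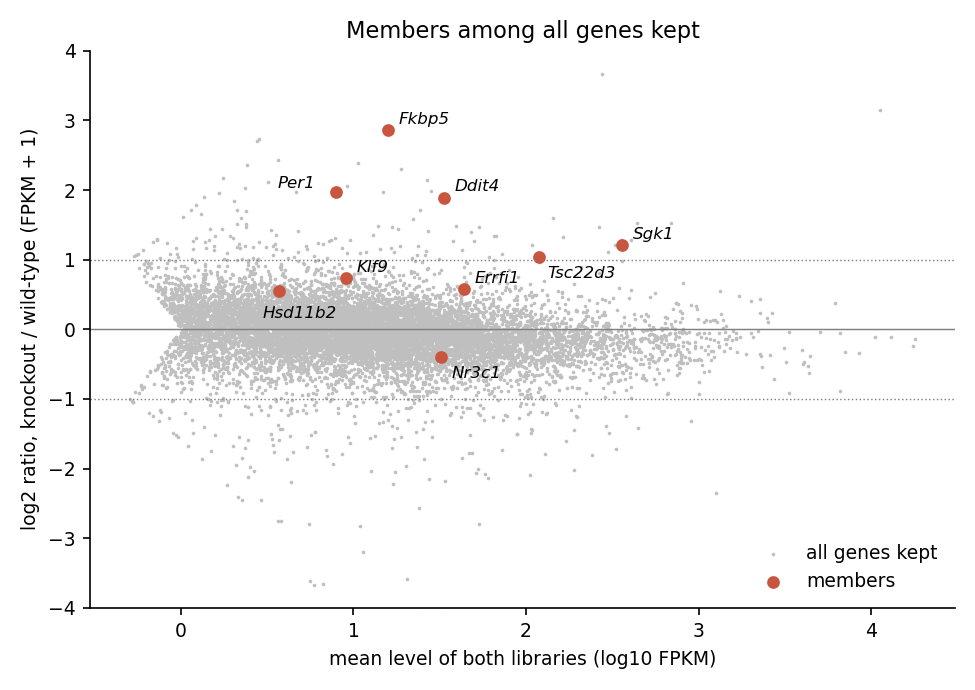
Log2 ratio on the FPKM + 1 scale against the mean level of both libraries (log10 FPKM) for all 11504 genes kept (grey) and the 9 members among them (red); dotted lines mark 2-fold, and 33 genes beyond 4 on either side, 29 of them with only short transcripts, are outside the plot. Fkbp5 at 2.86, Per1 at 1.97 and Ddit4 at 1.89 lie above nearly all genes of like level, Hsd11b2, Klf9 and Errfi1 lie inside the upper part of the cloud, and Nr3c1 at -0.40 lies inside the lower part.

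Other genes known to be induced by glucocorticoids were compared as a separate list of 46 genes, of which 45 were listed, and lay on both sides. Of 37 kept, 21 were above 0 and 16 below, 3 were past 2-fold on the higher side and 2 on the lower, with a median of 0.12. Of all genes kept, 1.34% were past 2-fold on the higher side and 2.04% on the lower. Ccrn4l, the gene of nocturnin, was at 10.7 FPKM in wild-type and 45.5 FPKM in knockout cells. Pck1, the entry enzyme of gluconeogenesis and the most abundant of the list, was at 235 and 574 FPKM, and Angptl4, an inhibitor of lipoprotein lipase that was named after its value was seen, at 65.1 and 152 FPKM. The metallothionein genes were lower: Mt1 was at 509 FPKM in wild-type and 155 FPKM in knockout cells, and Mt2 at 172 and 39.8 FPKM. Metallothioneins bind zinc and copper and answer to metals as well as to steroids. The counting intervals were wholly above 1 for 15 of the 37 and wholly below 1 for 14. Over all genes with an interval these shares were 19.7% and 30.4%.

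Within that list, 5 further classic targets were picked for naming after their values were seen. Dusp1, a phosphatase that shuts off MAP kinases, was at 5.74 FPKM in wild-type and 11.4 FPKM in knockout cells. Tgm2, a transglutaminase, was at 45.7 and 84.7 FPKM. Zfp36, which destabilises cytokine transcripts, was at 152 and 184 FPKM. Cebpb, a transcription factor gene of the same list, was at 14.1 and 6.56 FPKM, an FPKM ratio of 0.465 (interval 0.36 to 0.61). Its log2 ratio of -0.998 lay just short of 2-fold lower. Zbtb16, often the most strongly induced target in other tissues, was at 0.0418 and 0.181 FPKM, too few fragments to resolve a difference. Genes of this description thus lay on both sides, unlike the 7 targets, which were chosen with their values known.

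Inflammatory genes that glucocorticoids repress were mostly low in level in both libraries. Of 22 genes 11 were kept, 8 of them below 0 and 1 at least 2-fold lower, with a median of -0.12. The counting intervals were wholly above 1 for 1 of the 11 and wholly below 1 for 2. The median was 0.01 with FPKM sums made equal outside short transcripts. The gene past 2-fold was Ccl20, a chemokine of the follicle epithelium. It was at 5.88 FPKM in wild-type and 2.34 FPKM in knockout cells, about 33 and 14 fragments. Ccl20 was not past 2-fold with 5 added, or with equal FPKM sums or upper quartiles. Ccl5, a chemokine of intraepithelial lymphocytes and the most abundant of the list, was at 166 and 232 FPKM. Tnf was at 1.45 and 0.631 FPKM, with an interval of 0.18 to 1.05. Il6 and Il12b, also named after their values were seen, were listed at 0 in both libraries.

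Pathways around single targets were read next, beginning with sodium transport, where SGK1 acts. Of 15 kept genes, 9 were above 0, 2 were at least 2-fold lower and none was 2-fold higher on the FPKM + 1 scale, with a median of 0.02. Of all genes kept, 2.04% were at least 2-fold lower. Slc9a3r2, a scaffold of the exchanger, was at 0.624 and 1.54 FPKM, an FPKM ratio of 2.46 (interval 1.18 to 5.43). Scnn1a, Scnn1b, Scnn1g and Slc9a3, and in the later lists Egfr, Arntl and Nr1d1, were also named after their values were seen. Scnn1a, a sodium channel subunit, was at 5.92 and 6.01 FPKM, while Scnn1b and Scnn1g were listed at 0 in both libraries. Slc9a3, the main sodium-hydrogen exchanger of the brush border, was at 82.6 and 98.4 FPKM. The 2 lower genes were Ndrg1, a substrate of SGK1, at 131 FPKM in wild-type and 45.3 FPKM in knockout cells, and the related kinase gene Sgk3, at 3.96 and 1.14 FPKM.

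Around DDIT4, of 15 kept mTORC1 genes 10 were below 0 and none was 2-fold apart, with a median of -0.23. That median was -0.06 with FPKM sums made equal outside short transcripts. Sesn3, a stress inhibitor of mTORC1, was at 5.79 FPKM in wild-type and 3.50 FPKM in knockout cells. Around ERRFI1, of 13 kept EGF receptor genes 7 were above 0 and none was 2-fold apart, with a median of 0.05. Egfr was at 8.37 and 9.49 FPKM, and the ligand gene Hbegf was at 16.4 and 28.4 FPKM. Among 12 relatives of Tsc22d3 and Klf9, none was 2-fold apart on the FPKM + 1 scale and the median was 0.01. Klf2, another factor of the KLF family, was at 0.765 and 1.97 FPKM, an FPKM ratio of 2.57 (interval 1.33 to 5.61), and was past 2-fold with 0.1 added. Tsc22d1, the most abundant relative, was at 201 FPKM in wild-type and 110 FPKM in knockout cells, opposite to Tsc22d3.

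Several of the targets also answer to other inputs, and lists for these were read in the same libraries. Of 15 kept clock genes, which exclude Per1, none was 2-fold apart on the FPKM + 1 scale and the median was -0.04. With 0.1 added, or with equal FPKM sums or upper quartiles, 1 was. Per2 was at 2.28 FPKM in wild-type and 5.28 FPKM in knockout cells, an FPKM ratio of 2.32 (interval 1.88 to 2.89), and the clock output repressor gene Nfil3 at 27.8 and 14.6 FPKM. The core activator gene Arntl was at 30.6 and 29.7 FPKM, and Nr1d1 at 39.4 and 31.3 FPKM. The labels give no time of day, and its part in the Per1 difference was not tested.

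Of 15 kept immediate early genes, 9 were above 0 and none was past 2-fold on the FPKM + 1 scale, with a median of 0.13. With 0.1 added or under the 4 rescalings of the knockout library, 1 or 2 were. The counting intervals were wholly above 1 for 8 of the 15 and wholly below 1 for 6. Fos was at 96.5 FPKM in wild-type and 157 FPKM in knockout cells, Fosb at 1.52 and 4.04 FPKM, and Atf3 at 22.7 and 41.9 FPKM. Ier3 was lower, at 5.23 and 3.02 FPKM (interval 0.34 to 0.93). The FPKM ratio of Fosb was 2.65 (interval 1.92 to 3.69). Of 14 hypoxia genes, 7 were above 0 and 7 below, with a median of 0.01. At least 2-fold higher was 1 of them, Pfkfb3, a glycolytic regulator, at 14.3 and 39.7 FPKM. Egln3 and Adm, of the same list, were lower, at 18.1 and 1.77 FPKM in the knockout library against 35.5 and 3.94 FPKM. Of 11 kept genes of the integrated stress response and of p53, 4 were above 0 and none was 2-fold apart on the FPKM + 1 scale, with a median of -0.16. Of 9 kept FOXO and fasting genes, 3 were above 0 and none was 2-fold apart, with a median of -0.22. With FPKM sums made equal outside short transcripts, the stress and p53 median was 0.02 and the FOXO and fasting median -0.05. The part of these inputs in the differences of Ddit4, Per1 and Sgk1 was not tested.

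**Figure D4:**
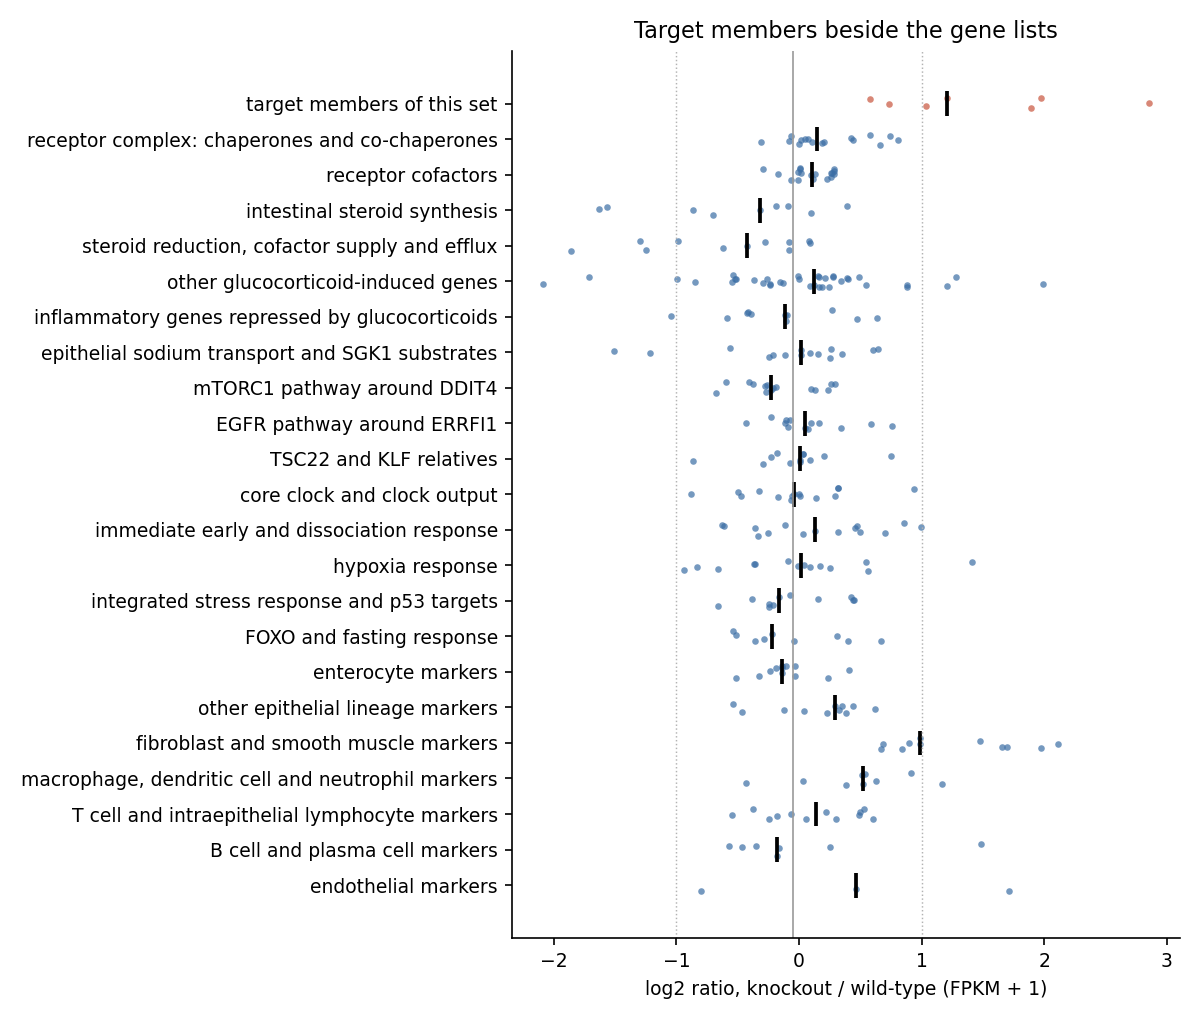
Log2 ratio on the FPKM + 1 scale of the 7 targets (red points) and of the kept genes of each list with at least 3 of them (blue points); black bars are medians, the grey line is the median of all genes kept and dotted lines mark 2-fold. The targets have a median of 1.21, the fibroblast and smooth muscle markers of 0.99, and the list of other glucocorticoid-induced genes of 0.12 with points on both sides.

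Markers of other cell types differed between the same libraries. All 11 kept fibroblast and smooth muscle markers of 13 were higher, with counting intervals wholly above 1, and 5 of them were at least 2-fold higher on the FPKM + 1 scale. That count was 10 with 0.1 added and 1 with 5 added, where the median of 0.99 was 2.09 and 0.55. It was 2 with a minimum of 5 FPKM and 7 or 8 under the 4 rescalings. The summed level of the list was 18.8 FPKM in wild-type and 57.0 FPKM in knockout cells. Macrophage, dendritic cell and neutrophil markers had 8 of 9 kept genes above 0, with sums of 72.0 and 92.7 FPKM. S100a8 and S100a9 of this list were at 0 in both libraries. Endothelial markers had 2 of 3 kept genes above 0, with sums of 2.40 and 6.53 FPKM. Of 12 markers of T cells and intraepithelial lymphocytes 7 were above 0, with sums of 454 and 474 FPKM, and B and plasma cell markers 2 of 7, with sums of 104 and 123 FPKM. Enterocyte markers had 2 of 12 above 0, with sums of 69171 and 62414 FPKM. Their lean depends on scaling: the median of -0.14 was 0.05 with FPKM sums made equal outside short transcripts. Markers of the other epithelial lineages had 8 of 11 above 0, with sums of 5681 and 4623 FPKM. The 1 kept red blood cell marker was lower, with list sums of 29.4 and 5.46 FPKM. Adipocyte and liver markers had 1 of 2 kept genes above 0, with sums of 623 and 692 FPKM, and Plin1 and Lep were at 0 in both. Stromal cells, leukocytes and endothelium express the glucocorticoid receptor and several of these targets too, and their part in the differences of the members was not tested.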

How the data were processed

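Per the labels' protocols, RNA was extracted with RNeasy Mini columns and mRNA libraries were made with a TruSeq stranded kit. Cuffnorm 2.2.1, TopHat2 2.0.13, Bowtie2 2.2.3 and SAMtools 0.1.19 appear in the submitters' processing notes, with mm10. What each did, its settings and the annotation: not given in the sources used here. Deposited values are taken as FPKM, made by the authors, 1 per gene and library; no header names the unit, which was inferred from Cuffnorm and the values. The scaling between libraries is not stated, and FPKM summed to 750631 (wild-type) and 683884 (knockout).

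The members and gene lists were chosen with earlier results of these data known. Genes with at least 1 FPKM in a library were kept, and log2 ratios used a pseudocount of 1 FPKM. With 1 library per genotype no test was possible, and 2-fold is a rule of size. Beside the 10 members and Mir215, each list could name its most abundant gene and the 4 with the log2 ratios farthest from 0; genes of the receptor and steroid lists could all be named. A few of the genes so named are not reported here.

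Depth was read from single-transcript protein-coding genes under 0.3 FPKM. With 210 nt taken off each transcript length, 1 fragment over 1 kb was worth 0.103 FPKM (wild-type) and 0.0987 FPKM (knockout), and 66.5% and 64.7% of the genes at 1 to 5 fragments came within 2% of whole fragments, against 29.2% and 28.5% with full lengths. The reading of the length offset and of the worth of 1 fragment was tried on simulated data. Interval coverage was tried there with the drawn fragments, not with estimated ones. Fragments of a gene used the median length of its RefSeq-linked transcripts in GENCODE M21 (all where none is linked), which matched 22826 symbols. Coordinates (from 1) are on GRCm38, which is mm10. Sequences are from RefSeq (GRCm38.p6), 3' UTRs from GENCODE M21. Python 3.11.15 with scipy 1.17.1 was used.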

Additional observations from a re-analysis of the deposited data

How the results depend on the processing

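The 7 targets were chosen with their values known. Their log2 ratios stayed above that of the median gene under each of the 9 alternatives of pseudocount, filter, scaling and threshold. The filters and the threshold do not alter a gene's ratio, and each rescaling multiplies all knockout values by the same factor. Those alternatives could therefore hardly change the targets' place. Nr3c1 stayed below 0, between -0.41 and -0.22. Members at least 2-fold higher numbered 5 in all but 2 of the 9 alternatives. They were 4 with a pseudocount of 5, where Tsc22d3 was at 0.998, just under the threshold, and 6 at 1.5-fold. Rescaling the knockout library moved the median of all genes from -0.05 to between 0.00 and 0.12. The count of all genes higher and lower was 154 and 235. It was 339 and 361 with a pseudocount of 0.1, 60 and 120 with a pseudocount of 5, and 556 and 835 at 1.5-fold. It was 97 higher with at least 5 FPKM, and 235 higher against 176 lower with sums equal outside short transcripts. Equal summed FPKM gave 209 and 185, equal upper quartiles 186 and 200, and a median ratio of 1 gave 175 and 215. With the shortest or longest RefSeq-linked transcript, no member's counting interval changed its side of 1. For Nr3c1, Hsd11b2, Fkbp5, Ddit4 and Klf9 the 2 lengths are the same, so their intervals could not change. Any annotated 3' UTR gave the seed match in the same 1 member. Of the members' log2 ratios over the alternatives, 16 moved outside their main counting interval and 55 did not. The 55 include the ratios under the changed filters, which could not move. Fkbp5 was at 3.17 with a pseudocount of 0.1 and at 2.06 with 5. Sgk1 left its interval under each of the 4 rescalings. With the knockout values multiplied by 1.14, its FPKM ratio interval was 2.55 to 2.72, against 2.24 to 2.39 unscaled. Over the gene lists, 52 counts of genes past the threshold moved by over 1.5 times or to or from 0, and 173 did not. Of the medians, 10 moved by over 0.25 and 189 did not. No paired analysis was possible because each genotype has 1 library.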
